A study of Homo sapiens with 11 samples.

Results

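JMJD1C binding was examined over the gene clusters that encode the replication-dependent histones, in the Kasumi-1 line. The clusters were taken as 4 windows of hg19: window A of 280 kb (chr6:26010000-26290000), window B of 30 kb (chr6:27090000-27120000), window C of 100 kb (chr6:27770000-27870000) and window D of 90 kb (chr1:149780000-149870000). A called peak was counted in a window when its summit lay inside it, and 56 of the 36191 peaks met this rule, 26 in A, 6 in B, 14 in C and 10 in D. Kasumi-1 is a cultured myeloblast line with the RUNX1-RUNX1T1 fusion, from human acute myeloid leukaemia, and the labels name no treatment. Chromatin was crosslinked, sonicated and precipitated with a serum raised by the submitters against the N-terminus of JMJD1C, and the bound DNA was sequenced (ChIP-seq). The library gave 29330355 tags, of which 19897991 remained after 1 tag was kept per position. The series holds 11 libraries of 4 lines, 1 per line and target, and the other 10 (LYL1, input DNA and the JMJD1C libraries of the other lines) were not analysed here. Peaks were called by the authors in this library alone, without an input, so binding could not be separated from DNA that collects tags for other reasons. With 1 library there is no replicate spread, peaks are not replicates of each other, and no p-value was computed. Intervals below are exact 95% intervals. They reflect counting error or peak-to-peak spread in the 1 library and nothing beyond it, and those of ratios take the reference as fixed unless stated. They also treat peaks as independent, which close neighbours may not be, so they can be too narrow.

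Replication-dependent histone genes supply the core histones H2A, H2B, H3 and H4 and the linker histone H1 for newly made DNA. They are transcribed mainly in S phase at nuclear sites called histone locus bodies, lack introns as a rule, and end in a stem-loop in place of a poly(A) tail. H2A and H2B genes often lie head to head and share the DNA between them. JMJD1C belongs to the KDM3 branch of the JmjC proteins, a branch known for removing methyl groups from lysine 9 of histone H3.

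The RefSeq gene table, of assembly GRCh38.p14, holds 4 runs of neighbouring histone genes on these chromosomes, and 64 protein-coding histone genes belong to them. The run that corresponds in order to window A goes from H1-1 to H4C8 and holds 32 genes, with 5 genes of the linker histone H1, 4 of H2A, 8 of H2B, 7 of H3 and 8 of H4. Among them, H1-6 encodes a linker histone of the testis. The run for window B goes from H2BC11 to H2AC12 with 5 genes, that for window C from H2BC13 to H2BC17 with 16 genes, and that for window D from H2BC18 to H2AC21 with 11 genes. Peaks thus numbered 26 against 32 genes, 6 against 5, 14 against 16 and 10 against 11. No such count is given for the rest of these chromosomes, and the reference used below was not matched to the windows for gene number. The table is of another build than the peaks, so the runs were matched to the windows by their order alone and no peak was assigned to a gene.

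The DNA before the start of these genes is shown for 4 of them because it displays what the family shares and where its copies cannot be told apart. RefSeq promoters were found for 59 of the 64 genes. The 250 bases before the start are printed 5′ to 3′ on the gene's strand, and capitals mark 5 words wherever they occur on either strand. They are the TATA word TATAAA, the CAAT-box word CCAAT, the octamer ATTTGCAT, the E-box CANNTG and the RUNX core TGTGGT. The GRCh38.p14 positions are not to be compared with the hg19 positions of the peaks.
H3C1 (GRCh38.p14, chr6:26020201-26020450, plus strand): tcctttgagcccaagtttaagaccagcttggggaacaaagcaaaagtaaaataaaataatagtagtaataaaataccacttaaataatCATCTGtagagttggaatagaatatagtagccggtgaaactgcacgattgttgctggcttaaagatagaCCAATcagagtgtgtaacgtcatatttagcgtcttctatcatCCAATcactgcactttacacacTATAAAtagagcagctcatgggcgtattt
H2BC4 (GRCh38.p14, chr6:26123927-26124176, minus strand): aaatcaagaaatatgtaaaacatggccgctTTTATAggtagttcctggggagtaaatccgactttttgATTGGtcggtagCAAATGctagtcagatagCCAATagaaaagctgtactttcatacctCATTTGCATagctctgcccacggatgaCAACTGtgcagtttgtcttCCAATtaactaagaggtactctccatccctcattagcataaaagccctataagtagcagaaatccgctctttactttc
H2AC6 (GRCh38.p14, chr6:26123922-26124171, plus strand): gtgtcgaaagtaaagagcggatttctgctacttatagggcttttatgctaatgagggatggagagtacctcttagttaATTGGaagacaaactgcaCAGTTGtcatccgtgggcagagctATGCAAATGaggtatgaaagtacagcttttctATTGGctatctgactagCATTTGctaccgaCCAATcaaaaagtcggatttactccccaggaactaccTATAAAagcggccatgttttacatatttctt
H4C14 (GRCh38.p14, chr1:149832407-149832656, plus strand): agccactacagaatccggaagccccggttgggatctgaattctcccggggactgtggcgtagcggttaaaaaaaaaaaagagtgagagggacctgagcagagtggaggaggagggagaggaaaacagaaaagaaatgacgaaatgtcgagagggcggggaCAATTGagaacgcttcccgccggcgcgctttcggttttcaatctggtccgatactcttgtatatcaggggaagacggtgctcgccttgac
H3C1 encodes histone H3 and is the first H3 gene of the run for window A, and its sequence holds 2 CCAAT words, 1 TATAAA word and 1 E-box. H2BC4 and H2AC6 encode an H2B and an H2A and are the first head-to-head pair of that run with overlapping promoters. Both lines hold the same 3 CCAAT words, the same ATTTGCAT word and the same TATAAA word because their windows of 300 bases, 250 before and 50 after the start, overlap by 255 bases on opposite strands. H4C14 encodes histone H4 and holds only 1 of the searched words, CAATTG, which matches CANNTG.

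Over the table's 300-base promoters, CCAAT was found in 54 of the 63 listed for the 59 histone genes (85.7%) and in 34.6% of all 35093 promoters. It was in each of the 6 promoters of H1, 14 of H2A, 18 of H2B and 13 of H3, and in 3 of 12 of H4. TATAAA was in 42 of 63 (66.7%) against 11.5% of all promoters. ATTTGCAT, known from H2B promoters, was in 14 of 18 H2B promoters and 10 of 14 H2A promoters, in 1 of 13 of H3 and in none of the 12 of H4 or the 6 of H1, against 1.77% of all promoters. The remaining words were near the level of all promoters. CANNTG, which basic helix-loop-helix factors such as LYL1 can bind, was in 42 of 63 (66.7%) against 68.7%, and TGTGGT was in 7 of 63 (11.1%) against 13.1%. ATTTGCAT can overlap CANNTG, as it does in H2BC4. Some DNA is counted for more than 1 gene, since 11 pairs of these promoters overlap, 10 of them on opposite strands. RefSeq lists the same 300 bases for H3C4 and H2AC7, both overlapping H2BC7, and H3C4 is the 1 H3 gene with ATTTGCAT. These are matches of letters and not bound sites.

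JMJD1C peaks were packed more densely in the histone windows than elsewhere on the same chromosomes. The 4 windows held 11.2 peaks per 100 kb (interval 8.46 to 14.5), against 1.41 (1.37 to 1.45) over the rest of chromosomes 6 and 1, which held 5479 peaks. The ratio was 7.95 (6.0 to 10.3). By window the density was 9.29 per 100 kb in A (6.07 to 13.6), 20 in B (7.34 to 43.5), 14 in C (7.65 to 23.5) and 11.1 in D (5.33 to 20.4). These 4 intervals overlap one another, so no order among the windows is given, while each lies above the value of the rest. Peaks covered 8.85% of the bases in the windows and 0.807% of the bases in the rest. Against its own chromosome the density was 9.82 times as high for the 3 windows on chromosome 6 and 6.90 times as high for window D.

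**Figure D1:**
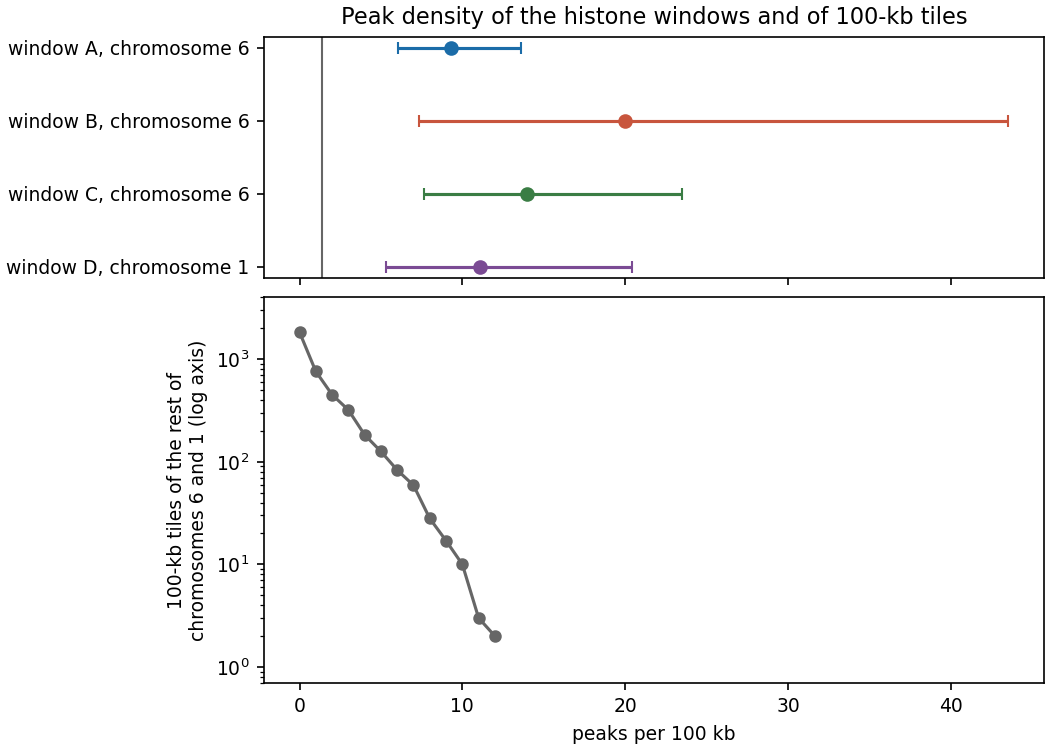
Upper panel, peaks per 100 kb in each window (points) with exact Poisson 95% intervals (bars), and the rest of chromosomes 6 and 1 as a vertical line at 1.41; lower panel, number of 100-kb tiles of the rest (log axis) by their number of peaks. The fullest tile holds 12 peaks and window C, of the same size, holds 14. The other windows differ in size from these tiles, so their values per 100 kb are not to be read against them.

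Equal pieces of the rest give a scale for these numbers. Among 3876 tiles of 100 kb the median held 1 peak and the fullest 12, so none reached the 14 peaks of window C. Among 1377 tiles of 280 kb the fullest held 24 peaks, and none reached the 26 of window A. At least the 6 peaks of window B were found in 8 of 12951 tiles of 30 kb (0.0618%), the fullest with 9. At least the 10 peaks of window D were found in 5 of 4312 tiles of 90 kb (0.116%). The sets of tiles differ in size and number, so these shares give no order among the windows. Tiles shifted along the chromosome gave the same picture, with fullest tiles of 13 peaks at 100 kb and 25 peaks at 280 kb.

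The neighbourhood and a limit on the fold of the peaks both bear on the size of the difference. Chromosome 6 from 25 to 29 Mb, outside the windows, held 127 peaks or 3.54 per 100 kb, and against it the 3 windows on chromosome 6 were 3.17 times as dense (2.21 to 4.48, with the counting error of both). Among peaks with a fold enrichment of at least 10 the ratio of the 4 windows to the rest fell to 2.92 (1.51 to 5.09). Fold enrichment is the caller's own value per peak, the summit over the background near it. Among peaks whose score from the caller was above the list's median, the ratio was 8.76 (5.95 to 12.4). The fall was thus seen with the fold limit and not with the score limit.

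Peaks of the windows lay in closely spaced groups. Another summit within 10 kb was found for 53 of the 56 peaks (94.6%, 85.1% to 98.9%), against 47.8% of the peaks in the rest. All 6 peaks of B, all 14 of C and all 10 of D had one, and 23 of 26 in A. Being a neighbour is mutual, so the peaks are not independent here and the interval of the share is likely too narrow. The median distance between neighbouring summits was 6200.5 bp (2157 to 8391 bp) over 52 distances inside the windows, and 23729 bp over 5469 in the rest. The ratio of 0.261 includes an effect of the windows' size, since a long gap cannot lie inside a short window. With distances of the rest taken only inside 100-kb tiles it was 0.509. With neighbours counted within 2 kb in place of 10 kb, the share in the windows was 3.24 times that in the rest, against 1.98 times.

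The distances are described here in a short and a long class, a split that was not tested. Of the 52 distances, 20 (38.5%) were under 2500 bp, the longest of them 2472 bp, whereas 9.91% of those in the rest were that short. The other 32 were all at least 4688 bp. None of the 52 lay between 2500 and 4600 bp, where the rest had 3.95%, so an empty class of this width is not unusual for so few distances. These limits were chosen after the distances were seen. Short distances made up 8 of 25 in A, 2 of 5 in B, 6 of 13 in C and 4 of 9 in D. Joined at under 2500 bp, the 56 peaks formed 36 sites, of which 18 were single peaks, 16 were pairs and 2 were triplets. The sites of 2 or 3 peaks spanned 1074 to 3712 bp, with a median of 1962 bp. In them the strongest peak held between 1.05 and 2.97 times the tags of the weakest. Some pairs nearly touched: in 6 of 52 cases (11.5%) at most 100 bases lay between a peak and the next, against 2.56% in the rest. The closest were 2 peaks of window A, chromosome 6 from 26250046 to 26250557 and from 26250569 to 26251004, with 11 bases between them and 475 bp between their summits. They held 28 and 22 tags, and another peak, of 20 tags, followed 1119 bp further on.

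**Figure D2:**
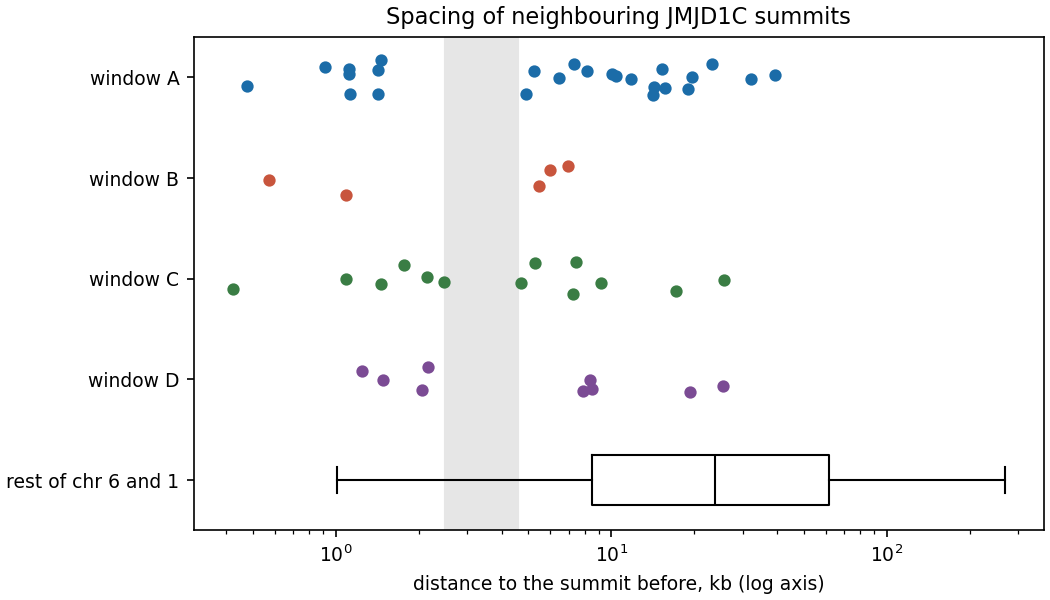
Distance from each summit to the one before it inside the same window (points, log axis in kb), with the rest of chromosomes 6 and 1 as a box of median and quartiles and whiskers at the 5 and 95 percentiles. The shaded band from 2500 to 4600 bp, chosen after the distances were seen, holds no point, with 20 distances below it and 32 above.

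Histone window peaks were long and carried many tags, yet their summits were of ordinary height. The median length was 697.5 bp (610 to 758 bp) against 488 bp in the rest, and 47 of 56 peaks were longer than that median of the rest. Peaks over 1000 bp numbered 13 of 56 (23.2%) against 8.82% in the rest, and 6 of these 13 were in window D. The median peak held 42.5 tags (39 to 53) against 31 in the rest. By window the medians were 42.5 in A (27 to 53), 34.5 in B (20 to 79) and 40 in C (26 to 70). Each of these intervals includes 31. Only that of window D, 40 to 166 around a median of 96.5, lies above it, and most of its tags are in peaks of uncertain tag number, described below. Weak peaks were few, since 5 of 56 (8.93%) held 20 tags or fewer, against 30.4% in the rest. The caller's p-value cutoff is taken against the local background, so a higher background requires more tags at a given length. That background, inferred per peak with its own tags included, was higher in the windows (median 180 per 10 kb) than in the rest (135). How far the cutoff sets the tag median and the share of weak peaks was not tested. Tags per 100 bp of peak were alike, with a median of 6.05 (5.59 to 6.73) against 6.01. The summit height is the number of tags that overlap at the summit once each is extended to the fragment size of 88 bp. It could be recovered as a whole number for 52 of the 56 peaks from the deposited fold, score, tags and length. The median height was 12 tags in the windows (11 to 14) and 12 tags in the rest, and 25 of the 52 stood above 12.

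The signal around the peaks was high and the fold enrichment low. Around a peak, outside its own bases, the recovered background had a median of 156 tags per 10 kb (142 to 160) in the windows, against 101 in the rest. By window the medians were 134 in A, 135 in B, 169 in C and 189 in D. It lay above the median of the rest in 47 of 52 peaks, and in each of the recovered peaks of C (12) and D (10). The median fold enrichment was 7.63 (6.72 to 8.74) against 10.79 in the rest. Folds of 10 or more were seen in 12 of 56 peaks (21.4%, 11.6% to 34.4%), against 58.4% of the rest. None of the 56 reached a fold of 20, where a count of 0 was taken to allow 3 of 56, or 5.36%, and the exact interval reached 6.38%. In the rest 9.38% did. The highest fold of the windows was 16.81. Fold is summit height over background, so with equal median heights a higher background and a lower fold are the same observation and not separate ones.

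**Figure D3:**
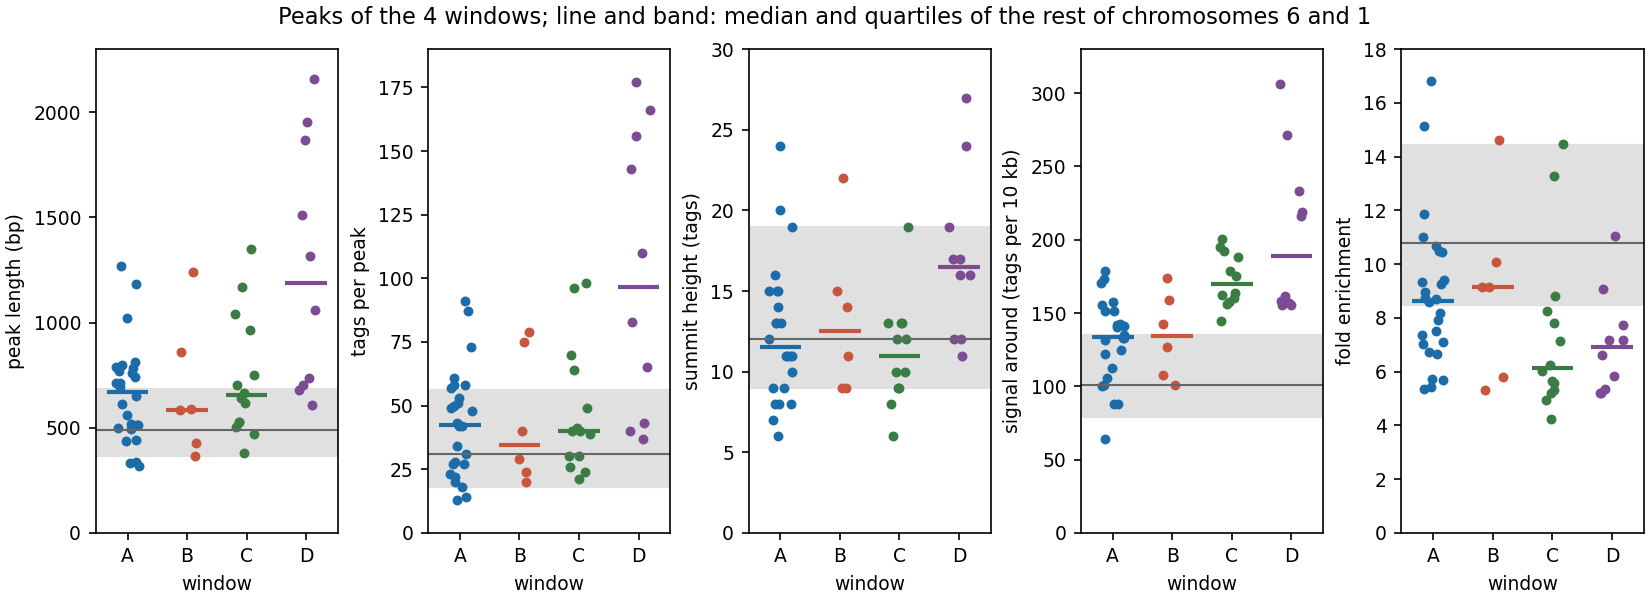
Peak length, tags per peak, summit height in tags, signal around the peak in tags per 10 kb and fold enrichment of each peak (points) in windows A to D, with window medians as coloured bars and the median and quartiles of the rest of chromosomes 6 and 1 as a line and a band. Median heights are 12 in both, while the signal around peaks is mostly above, and fold mostly below, the line of the rest.

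Part of that signal consisted of tags in neighbouring peaks. With the tags of all called peaks within 5 kb on either side of the summit taken off, and their bases too, the median was 113 tags per 10 kb (102 to 123) in the windows and 97.3 in the rest, where peaks at the caller's minimum background were left out. The values by window were 100 in A, 108 in B, 121 in C and 130 in D. Isolated peaks, with no other within 20 kb, had a median of 76.8 tags per 10 kb (72.1 to 83.3, 80 peaks) in the 20 to 35 Mb stretch that holds windows A to C. In the 10 Mb around window D it was 92.9 (83.2 to 98.1, 68 peaks), against 81.0 over both whole chromosomes. The part of this regional level in the values of window D was not tested. Against peaks of the rest that also had a neighbour within 10 kb, the windows had 1.32 times the median length, 1.22 times the signal around the peak and 0.786 times the fold. That signal still includes the tags of neighbouring peaks. With all called peaks taken off as above, the median of these reference peaks was 107 tags per 10 kb. This lies inside the interval of the windows' 113 (102 to 123).

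Window A, the longest, whose gene run has all H1 genes except H1-5, spread its 26 peaks over 18 sites. Its tags per peak went from 13 to 91. The most tags, 91 (exact Poisson interval 73.3 to 112), were in the longest peak of the window, 26204569 to 26205837 with 1269 bp and a fold of 7.51. Next came 26188765 to 26189561, with 87 tags (69.7 to 107), a summit height of 24 tags and a fold of 15.15. The third, 26285318 to 26286075, had 73 tags (57.2 to 91.8) and a fold of 11.02. These 3 intervals overlap, so their order is not settled. The highest fold, 16.81, belonged to the peak from 26103988 to 26104636 with 58 tags, which stood alone, 39324 bp after the summit before it and 19043 bp ahead of the one that followed. The third highest fold was 11.87, in the peak from 26172052 to 26172836 with 53 tags. The shortest peak was 26223906 to 26224222, with 317 bp, 13 tags (6.92 to 22.2) and a fold of 9.28. Of the 7 peaks of this window with a fold of 10 or more, 5 were singles, and 11 of all its 26 peaks were. The tags of a close neighbour enter the background that divides the fold, so fold and grouping are not separate measures. Of its 25 distances, 3 were above 20 kb, against 2995 of 5469 in the rest.

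In window B, where the RefSeq order has H2B, H2A and H4 genes, 6 peaks formed 4 sites. The first, 27094883 to 27095248, held 20 tags at a fold of 10.08 and was the shortest with 366 bp. A pair followed, with 24 tags at 27100189 to 27100617 (fold 5.81) and 40 tags at 27100751 to 27101341 (fold 9.14), their summits 574 bp apart. The single peak from 27106767 to 27107627 was the strongest, with 79 tags (62.5 to 98.5), a summit height of 22 tags and a fold of 14.62. The last pair was 27113538 to 27114778, the longest with 1241 bp, 75 tags and a fold of 9.16, and 27114833 to 27115414 with 29 tags and a fold of 5.30. The single in the middle and the first peak of the last pair had overlapping tag intervals, 62.5 to 98.5 and 59.0 to 94, and stood above the other 4 in tags.

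Window C, whose gene order includes H1-5 and genes of all 4 core histones, held 14 peaks in 8 sites. The most tags were in 2 single peaks beside each other, 27791601 to 27792770 with 98 tags (79.6 to 119) and 27798310 to 27799658 with 96 tags (77.8 to 117). They also had the highest folds of the window, 13.29 and 14.46, and the second was its longest peak with 1349 bp. Their summit heights could not be recovered as whole numbers. The third in tags was 27834296 to 27835338, where 70 tags (54.6 to 88.4) gave a fold of 6.01, and the third in fold was 27858160 to 27858864, where 64 tags gave a fold of 8.81. The other 12 peaks of the window, these last 2 included, had folds of 4.23 to 8.81, and 11 of the 14 were under the lower quartile of the rest, 8.48. The shortest peak, 27782814 to 27783192 with 379 bp and 21 tags, also belonged to the closest pair, 422 bp from the summit in 27782119 to 27782647 with 26 tags.

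**Figure D4:**
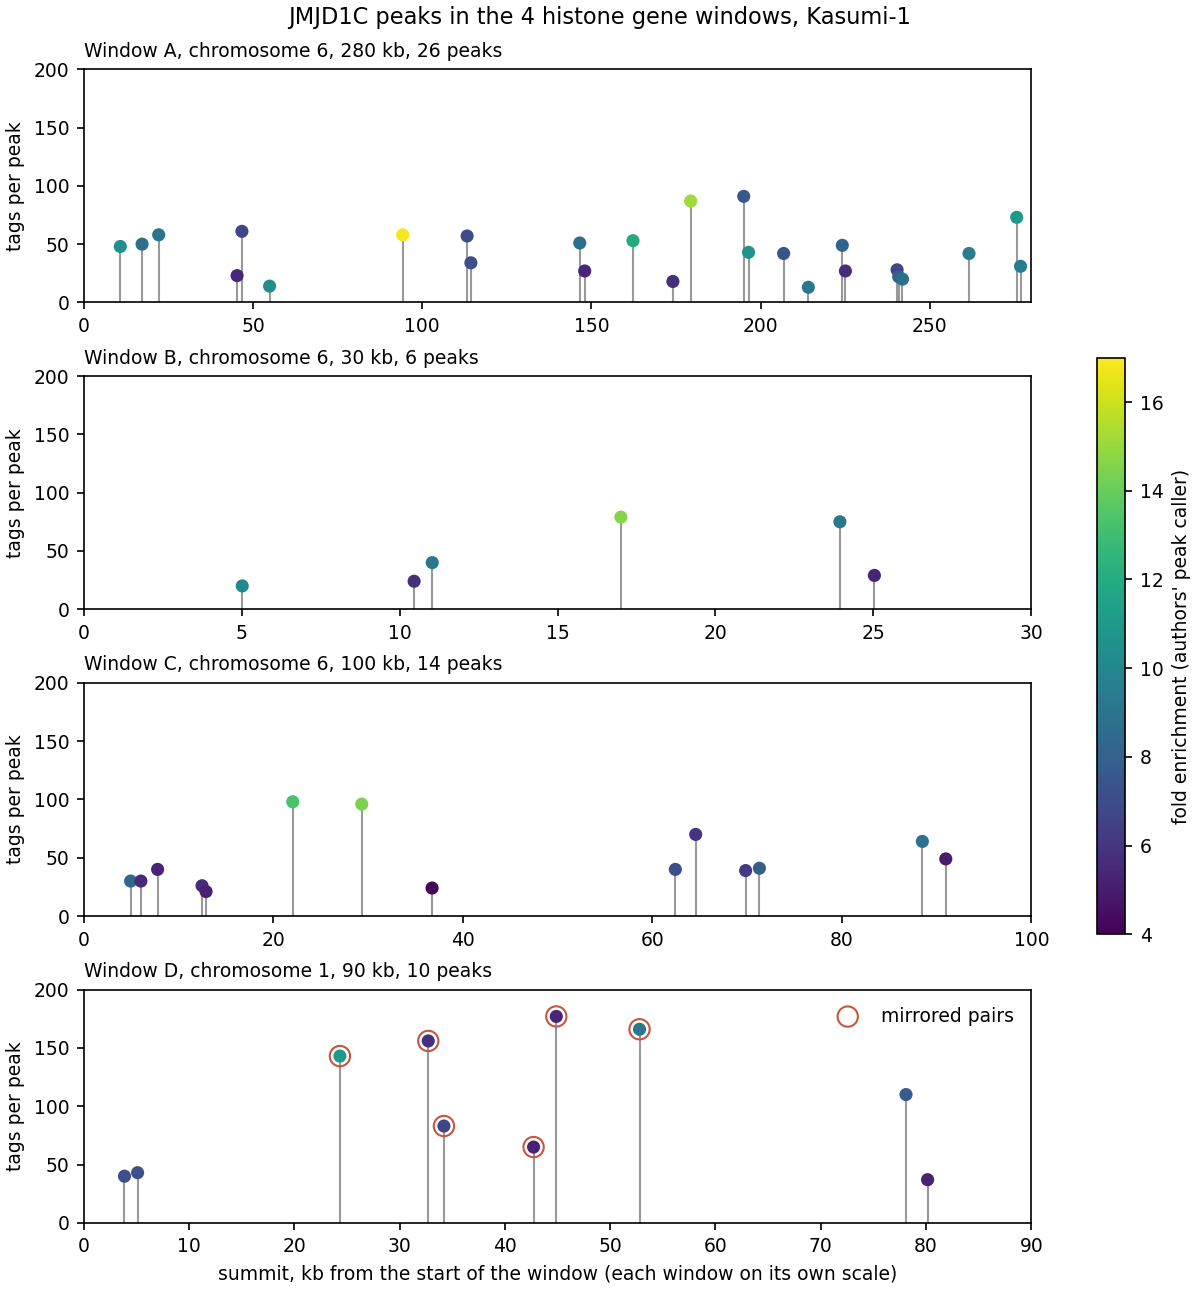
Tags per peak (vertical axis) by the position of the summit in kb from the start of each window (horizontal axis, each window on its own scale), coloured by fold enrichment, with the 6 peaks of the mirrored pairs in window D ringed. Windows A to C stay below 100 tags, and the ringed peaks reach 65 to 177 tags.

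Window D, on chromosome 1, held the longest peaks and those with most tags, and its medians depended on 6 of its 10 peaks. All of its 10 peaks were longer than the median of the rest and held more tags than it. Their median length was 1188.5 bp (679 to 1955 bp) and their median tag number 96.5 (40 to 166), which were 2.38 and 3.02 times the medians of the rest of chromosome 1. Without the 6 peaks of the mirrored layout described below, whose tag numbers are uncertain, the other 4 had medians of 690.5 bp and 41.5 tags, or 1.38 and 1.30 times those medians. The summit height was 16.5 tags in the median (12 to 24), against 12 on the rest of that chromosome and 12 in those 4 peaks. Only 1 of the 10 had a fold of 10 or more, a share 0.175 times that on the rest of chromosome 1. The first pair, 149783394 to 149784095 and 149784803 to 149785412, held 40 and 43 tags, each at a fold of 7.18 and a height of 12 tags. The last pair, 149857680 to 149859634 and 149859668 to 149860346, held 110 and 37 tags at folds of 7.74 and 5.19, with 33 bases between them. The first peak of this last pair, with 1955 bp, lies outside the 6 mirrored peaks. It exceeded every peak of windows A to C in length and in tags. The 6 peaks between these pairs are described next.

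These 6 peaks were laid out as a mirror image, a pattern chosen after their positions were seen. The outer pair was 149803544 to 149804862 with 143 tags (121 to 168) and 149831901 to 149833412 with 166 tags (142 to 193), at summit heights of 27 and 24 tags and folds of 11.04 and 9.09. Inside it lay 149811450 to 149813317 with 156 tags (132 to 182) and 149823331 to 149825488 with 177 tags (152 to 205), both at a height of 17 tags, with folds of 5.82 and 5.37. The inner pair was 149813677 to 149814734 with 83 tags (66.1 to 103) and 149822532 to 149823268 with 65 tags (50.2 to 82.8), at heights of 19 and 16 tags and folds of 6.62 and 5.21. Within each pair the tag intervals overlap. The midpoints of the 3 pairs lay within 334.5 bp of each other, although the summits of the outer pair were 28457 bp apart. The 6 peaks held 790 tags, 77.5% of those in the window's peaks.

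Of the 11 genes of this run, 6 in the middle are arranged the same way in RefSeq. In promoter order, after H2BC18 and H3C13, come H4C14, H3C14 and H2AC18, then H2AC19, H3C15 and H4C15, with the strands in opposite order on the 2 sides, and H2BC21, H2AC20 and H2AC21 follow. The 300-base promoters of H4C14 and H4C15 were identical, so the H4C14 line above is also that of H4C15. H2AC18 and H2AC19 shared an unbroken run of 299 bases and H3C14 and H3C15 one of 296. The tags of this library were 51 bp long, and a tag that lies inside such a run fits both copies. How tags with more than 1 best position were placed is not given in the sources used here, so the tag numbers of the 6 peaks are uncertain, and the part of shared tags in the mirror image was not tested. Of 1700 pairs of histone promoters that do not overlap, each read along its own gene's strand, 6 shared a run of at least 51 bases. Runs shared only between opposite strands were not searched, so more pairs may share one. The other 3 were in the run for window C, with 126 bases between H4C11 and H4C12 and 93 bases each between H2BC13 and H2BC14 and between H2AC13 and H2AC14. The promoters of H2BC13 and H2AC13 overlap, as do those of H2AC14 and H2BC14, so both runs of 93 bases can be the same stretch. Without the 6 mirrored peaks the 4 windows, at their full length, were 7.10 times as dense in peaks as the rest (5.27 to 9.36). Their peaks were then 1.35 times as long (1.15 to 1.52). They held 1.31 times the tags, with an interval of 1 to 1.58 that starts at no difference. All peaks of window C were kept in these values.

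The peaks beside the windows' edges are given as a description. The nearest peaks outside A were 2467 bp before it, with 9 tags at a fold of 9.94, and 6380 bp after it, with 29 tags at a fold of 14.07. Just inside, its first and last peaks held 48 and 31 tags. Outside B the nearest lay at 16395 and 5900 bp, with 10 and 21 tags, and the first and last inside held 20 and 29. Window C was followed at 755 bp by a peak of 50 tags at a fold of 12.53, and preceded at 6324 bp by one of 26 tags, against 30 and 49 tags for the first and last inside. Window D was preceded at 15440 bp by a peak of 56 tags at a fold of 4.97 and followed at 1073 bp by one of 35 tags at a fold of 14.57, against 40 and 37 tags inside. No peak changed side when any base inside a window, in place of the summit, was enough.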

How the data were processed

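Per the submitters' processing notes, the build was hg19 and the tools named are HOMER and Bowtie2 (version 2.1.0). Per the file headers, the authors called peaks with MACS 1.4.2 at a p-value cutoff of 1e-05, without a control, on tags of 51 bp and with a fragment size of 88 bp, keeping 1 tag per position. The deposited columns are the count of tags per peak, a score (10 times the negative log10 of a Poisson p-value), a fold enrichment (a ratio to the local background of 10 kb) and hg19 positions. Counts were not normalised.

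Local background was inferred per peak as the Poisson mean whose upper tail gives the score, over the peak length (176 to 5000 bp), and was used when within 0.05 of a whole number per 10 kb, or within 0.15 of the minimum of 73.7. Summit height is fold times background times fragment size, kept when within 0.05 of a whole number, in 95.0% of all 36191 peaks. The recovery was tested on data simulated with the same formulas, which checks the calculation and not how the caller obtained its values. The rest of chromosomes 6 and 1 is the span of their peaks without the windows and without peak-free stretches of at least 3 Mb. Median intervals are order-statistic intervals, shares have Clopper-Pearson intervals and numbers of peaks or tags Poisson intervals. Named peaks are the 3 with most tags, the 3 of highest fold, the longest, the shortest and the closest pair of each window, all peaks of windows with at most 10, and those beside the edges. The windows, lists and rules were chosen with earlier results of these data known. The gene and promoter tables are of GRCh38.p14. Software was Python (3.11.15) with the packages Matplotlib (3.10.9), pandas (2.3.3), SciPy (1.17.1) and NumPy (2.4.6).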

Additional observations from a re-analysis of the deposited data

How the results depend on the processing

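Values are ratios of the histone windows to the reference, and those that compare within a chromosome, leave out the mirrored peaks, use clustered reference peaks or concern the summit height were chosen after seeing the data. Of 87 alternative values, 66 stayed inside the interval of the reported value, 21 moved outside it and 0 changed direction. The summit height, with a ratio of 1, had no direction to change, and its alternatives went from 0.789 to 1.38. Values with any base inside a window equal the reported ones, since no peak changed side, and they count among those that stayed inside. Against chromosome 6 from 25 to 29 Mb, the density ratio was 3.17, the spacing ratio 0.429 and the ratio of shares with a neighbour 1.6. With only peaks of fold 10 or more the density ratio was 2.92, and with only peaks scoring above the median the ratio was 1.16 for tags and 0.789 for summit height. Window D against the rest of chromosome 1 gave 2.38 for length, 3.02 for tags, 1.79 for the signal around peaks, 1.38 for summit height, 0.361 for spacing and 0.175 for the share with a fold of at least 10. Against reference peaks with a neighbour within 10 kb the ratio was 1.21 for tags and 1.22 for the signal around peaks. That signal had a ratio of 1.33 in the widest window alone and 1.6 without it, where the share with a neighbour had 2.09. This share gave 3.24 within 2 kb, 2.61 within 5 kb and 2.08 on chromosome 6 alone, and the spacing ratio was 0.509 inside 100-kb tiles. The cause was not tested in these cases, except that fewer peaks or windows enter by construction. Depth limits the weak end of the list, where a peak can rest on 9 tags, and the calling without an input limits all of it. No paired analysis was run because a single library was analysed. The input and LYL1 libraries of Kasumi-1 in the series were not used here.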
